A study of Mus musculus with 6 samples.

Results

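The 7 genes described here encode proteins that bring glucose into islet cells, act on glucose 6-phosphate, or bring pyruvate into mitochondrial metabolism. They are *Slc2a2*, *Slc2a1*, *G6pc2*, *G6pc3*, *Pcx*, *Mpc1*, and *Mpc2*, taken by symbol from the 32285 genes counted in single-cell RNA-Seq libraries of mouse islets. Their unique molecular identifiers (UMIs, each marking 1 captured transcript) were summed per library in 5 classes of cells. Islets came from 3 WT and 3 β14-3-3ζ–KO mice at 12–14 weeks of age, with 1 library per mouse and no treatment. Their background is given as C57BL/6J in the paper and as C57/BL6 on the sample labels. In KO mice, Ins1-CreThor had been crossed with *Ywhaz* alleles floxed around exon 4, so that recombination follows the *Ins1* promoter and the other classes of cells carry floxed alleles without being its target. The study's controls are Cre+ littermates, and the labels call them wild type. All islets were dispersed after overnight recovery and depleted of dead cells. Because 3′ libraries do not read exon 4, a *Ywhaz* UMI does not show whether that exon is present.

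Glucose enters rodent β cells mainly through GLUT2, encoded by *Slc2a2*, and capillary endothelium mainly through GLUT1, encoded by *Slc2a1*. Glucose is then phosphorylated to glucose 6-phosphate, which the islet enzyme G6PC2 and the broadly expressed enzyme G6PC3 hydrolyze back to glucose. Pyruvate from glycolysis crosses the inner mitochondrial membrane through a carrier built of MPC1 and MPC2, and pyruvate carboxylase, encoded by *Pcx*, converts it to oxaloacetate, which β cells use for anaplerosis.

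The libraries held 43445 barcodes, of which 7 to 27 were shared between any 2 libraries, and between 74083947 and 98294915 UMIs each. Of the 25438 barcodes with at least 500 genes, at most 10% mitochondrial UMIs, and no doublet call, those with at least 10000 UMIs were sorted by hormone or marker share. This left 5264 β cell–like, 526 α cell–like, 460 δ cell–like, 244 *Ppy*-dominant, and 461 endothelial-like cells, and the smallest class in 1 library held 21 cells. Of the fixed markers, 6 of 7 β cell, 5 of 6 α cell, 5 of 5 δ cell, and 7 of 7 endothelial genes were highest in their own class. The 7 endothelial genes also set the gate of that class, so their count is no check of it. The *Ppy* class rests on 2 measured markers besides its hormone and is called by that hormone only. Endothelial-like cells also held the pericyte genes *Rgs5* (233 to 474 CPM) and *Pdgfrb*.

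*Ywhaz*, the targeted gene, was at 118, 164, and 155 CPM (UMIs of the gene scaled to 1e+06 UMIs of the sum) in β cell–like cells of WT libraries 1 to 3 and at 18.4, 17.6, and 19.4 CPM in KO libraries 1 to 3. The KO libraries did not overlap the WT libraries, and the log2 ratio of KO to WT was -3.02 (SE 0.08, edgeR adjusted p = 7.4e-07 by the Benjamini-Hochberg method).

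The promoters of *Slc2a2* and *G6pc2* are shown because these 2 genes were higher in β cell–like cells than in each other class by more than 4 on the log2 scale, unlike *Pcx*, which was also highest there. Each run holds the 250 bases before the start of the gene, from RefSeq on GRCm38.p6, on the plus strand, with matches to CANNTG on either strand in capitals. *Slc2a2* starts at chr3:28697903 and its run spans chr3:28697653-28697902. *G6pc2* starts at chr2:69211073 and its run spans chr2:69210823-69211072. RefSeq lists a further start for *G6pc2*, whose 250 bases (chr2:69219699-69219948, not printed) held 4 CANNTG and 2 TGCTGA matches.
Slc2a2: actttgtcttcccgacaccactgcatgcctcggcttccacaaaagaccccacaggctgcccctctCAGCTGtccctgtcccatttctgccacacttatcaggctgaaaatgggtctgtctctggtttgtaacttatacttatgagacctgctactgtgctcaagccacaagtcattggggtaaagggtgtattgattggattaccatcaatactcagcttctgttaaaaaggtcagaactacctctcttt
G6pc2: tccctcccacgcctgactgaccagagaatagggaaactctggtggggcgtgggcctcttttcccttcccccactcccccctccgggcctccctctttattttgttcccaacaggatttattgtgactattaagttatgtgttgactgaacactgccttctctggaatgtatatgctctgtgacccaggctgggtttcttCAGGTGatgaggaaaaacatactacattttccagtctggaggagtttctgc
Each held 1 CANNTG match, a motif that E-box factors bind and that 66.2% of 32851 promoter windows of the same length held. On either strand, neither printed run held TAATTA (4.84% of windows did), neither held GTTAAT (6.43%), neither held TGTTTAC (3.17%), neither held TGCTGA (16.1%), and neither held TATAAA (12.4%). The other genes lie on GRCm38 (GENCODE), plus strand, at chr4:119108711-119137983 (*Slc2a1*), chr11:102189620-102194081 (*G6pc3*), chr19:4510472-4621752 (*Pcx*), chr17:8282904-8297661 (*Mpc1*), and chr1:165460637-165481214 (*Mpc2*). *Pcx* overlaps *Lrfn4* on the other strand, which had 1975 UMIs in β cell–like cells.

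Levels are given first in CPM of all UMIs. Transcripts of 7 hormone genes took 45.7% to 54.7% of UMIs in β cell–like cells but 0.755% to 4.46% in endothelial-like cells, so CPM of every other gene is lowered in endocrine cells. Against α cell–like cells, the median gene tested was 0.36 lower in β cell–like cells on the log2 CPM scale and 0.01 higher after TMM normalization. The fold changes between classes below come from TMM normalization.

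*Slc2a2* was highest in β cell–like cells. Its β cell–like level was 119, 213, and 192 CPM in WT libraries 1 to 3 and 114, 194, and 153 CPM in KO libraries 1 to 3. The number 1 library was the lowest of each genotype. Means over the 6 libraries were 164 ± 41.8 CPM (SD, n = 6) in β cell–like, 11.8 ± 7.03 in δ cell–like, 9.40 ± 5.39 in *Ppy*-dominant, 7.70 ± 5.41 in α cell–like, and 7.46 ± 3.03 in endothelial-like cells. No library of any other class reached the lowest β cell–like library, and the other classes overlapped each other.

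*G6pc2* was highest in β cell–like cells too. WT libraries 1 to 3 had 407, 513, and 415 CPM in β cell–like cells, and KO libraries 1 to 3 had 397, 384, and 409.9 CPM. In other classes its mean ran from 22.0 ± 9.69 CPM in endothelial-like to 31.1 ± 12.2 CPM in α cell–like cells (SD, n = 6). These low levels moved together between libraries, being lowest in the number 1 library of each genotype in each of these 4 classes.

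**Figure D1:**
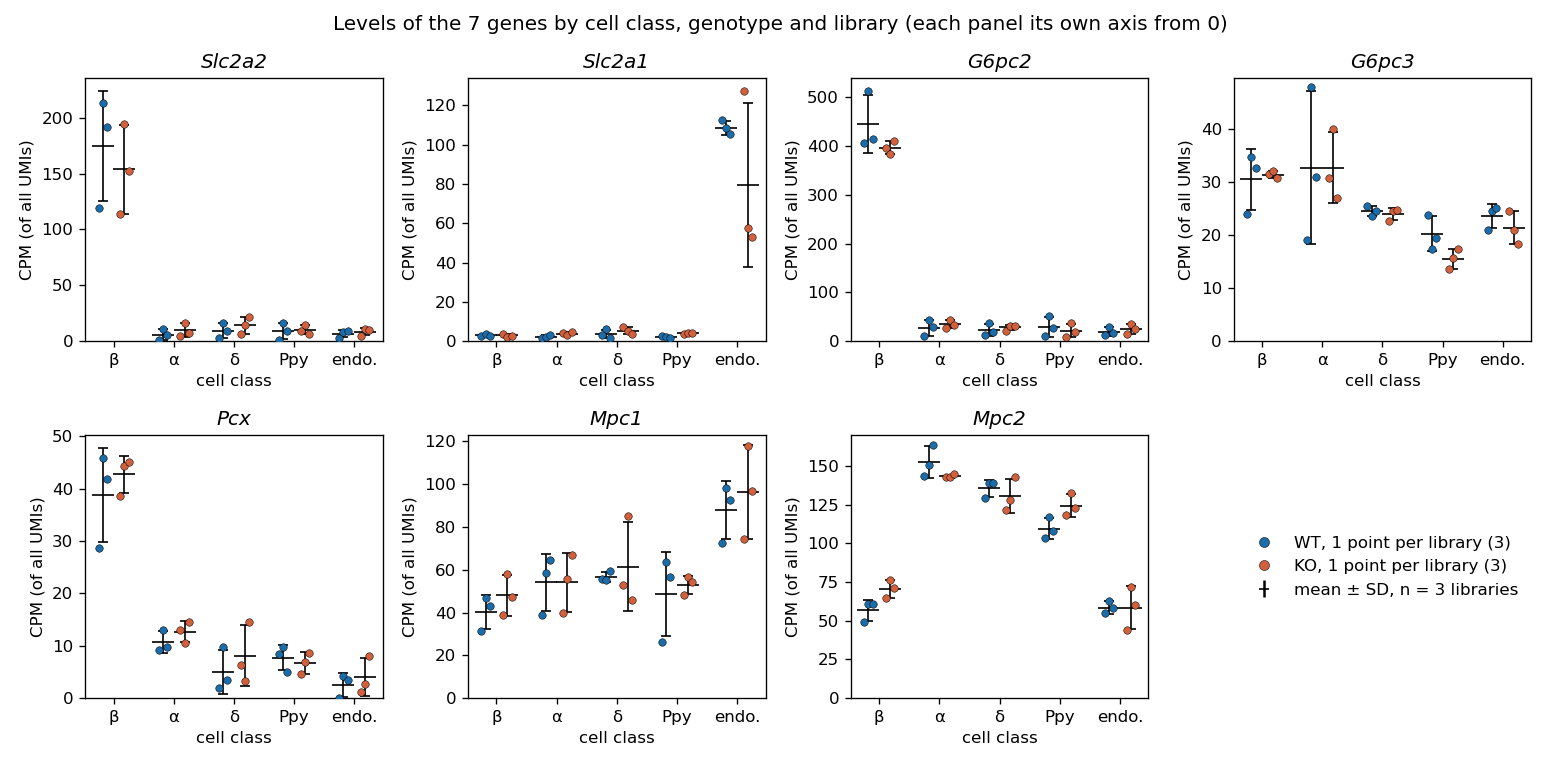
CPM of each of the 7 genes (vertical axis, from 0, its own scale in each panel) in 5 cell classes, with 1 point per library in blue (WT) or orange (KO) and bars for mean ± SD of 3 libraries. *Slc2a2*, *G6pc2*, and *Pcx* stand highest in β cell–like cells, *Slc2a1* in endothelial-like cells, and *Mpc2* in α cell–like cells.

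RNA freed from broken β cells can enter droplets of other cells. The level of a β cell gene elsewhere was therefore set beside the number of UMIs expected with the insulin UMIs counted there. This number assumes that all insulin UMIs there came with RNA of β cell–like composition, and their source was not tested. For *Slc2a2* in α cell–like cells, 80 UMIs were counted against 79.2 expected with insulin, a ratio of 1.01 (95% Poisson interval 0.80 to 1.26, counting error only). In macrophage-like cells, which should lack the gene, the ratio was 1.08 (0.79 to 1.45), and in endothelial-like cells 0.98 (0.75 to 1.27). The ratio of δ cell–like cells was 1.497 (1.21 to 1.84), above 1 in 6 of 6 libraries. The β cell genes *Mafa* and *Ucn3*, taken as references, had 1.30 (1.15 to 1.46) and 1.27 (1.00 to 1.60) in the same class, and *Mafa* reached 1.57 in *Ppy*-dominant cells.

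For *G6pc2* the ratio was 1.68 (1.505 to 1.88) in α cell–like cells, above 1 in 6 of 6 libraries, with 322 UMIs counted against 191 expected with insulin. It was 1.12 (0.92 to 1.34) in macrophage-like cells. *Mafa*, a β cell transcription factor, had 1.32 (1.19 to 1.45) in α cell–like and 1.14 (0.98 to 1.32) in macrophage-like cells on the same measure, so ratios somewhat above 1 were not confined to *G6pc2*. In α cell–like cells the interval of *G6pc2* lay above that of *Mafa*. In δ cell–like, *Ppy*-dominant, and endothelial-like cells *G6pc2* had 1.31, 1.41, and 1.18, against 1.30, 1.57, and 1.45 for *Mafa*. *Pcx* stood further out, at 6.10 (5.06 to 7.29) in α cell–like, 3.71 (2.81 to 4.80) in δ cell–like, and 3.84 (2.84 to 5.08) in *Ppy*-dominant cells, against 1.74 (1.14 to 2.55) in endothelial-like and 1.27 (0.68 to 2.17) in macrophage-like cells.

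**Figure D2:**
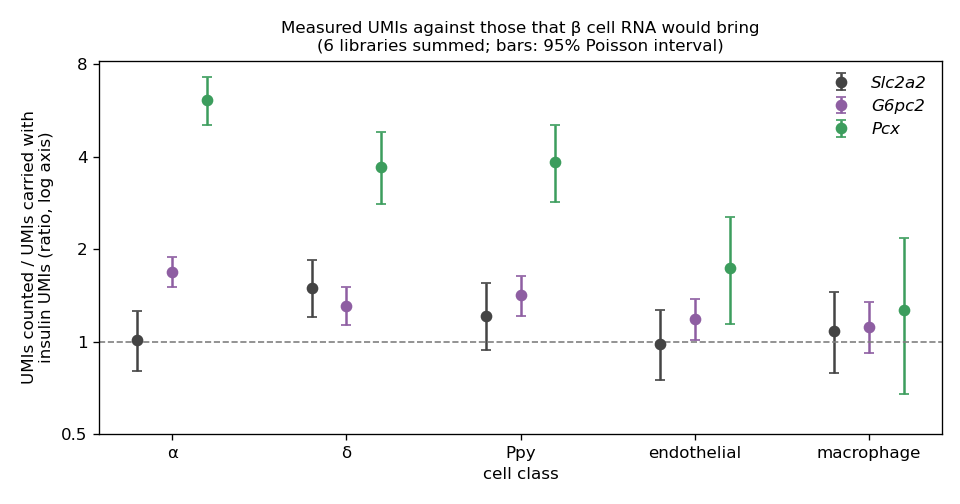
Ratio of UMIs counted to UMIs expected to arrive with insulin UMIs (log axis) for *Slc2a2*, *G6pc2*, and *Pcx* in 5 cell classes, 6 libraries summed, with 95% Poisson intervals. *Slc2a2* lies at 1.01 in α cell–like cells while *Pcx* lies at 6.10 there.

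*Slc2a1* was an endothelial gene in these libraries. In endothelial-like cells it was at 112, 108, and 105 CPM in WT libraries 1 to 3 and at 127, 57.7, and 52.9 CPM in KO libraries 1 to 3. KO library 1 was above every WT library and the other two KO libraries were below. The 4 endocrine classes had means between 2.95 ± 0.62 CPM (β cell–like) and 4.44 ± 2.05 CPM (δ cell–like). In β cell–like cells 5.46% to 10.9% of cells held a UMI. Macrophage-like cells, at 15.1 ± 7.39 CPM, were above all endocrine means and give no background for this gene.

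*Pcx* was at 28.7, 45.9, and 41.8 CPM in β cell–like cells of WT libraries 1 to 3 and at 38.7, 44.3, and 45.2 CPM in KO libraries 1 to 3. Its mean was 11.7 ± 2.16 CPM in α cell–like cells and 3.25 ± 2.81 CPM in endothelial-like cells, where WT library 1 had 0 UMIs. Every β cell–like library was above every library of the other classes.

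Of the carrier subunits, *Mpc2* was lower in β cell–like cells than in every other endocrine class, while *Mpc1* overlapped between endocrine classes. *Mpc2* averaged 148 ± 8.30 CPM in α cell–like, 133 ± 8.17 in δ cell–like, 117 ± 10.3 in *Ppy*-dominant, and 63.7 ± 9.44 CPM in β cell–like cells. The lowest of those other endocrine libraries, at 104 CPM, was above the highest β cell–like library, at 76.0 CPM. *Mpc1* averaged 44.2 ± 9.03 CPM in β cell–like cells, between 50.8 and 59.1 CPM in the other endocrine classes, and 92.1 ± 16.9 CPM in endothelial-like cells. *G6pc3* means ranged from 17.8 ± 3.53 CPM in *Ppy*-dominant to 32.6 ± 10.0 CPM in α cell–like cells.

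Neighbours in each gene's order of levels were compared over the 6 libraries by an exact sign-flip permutation test (2-sided, 28 pairs, Benjamini-Hochberg adjustment). The order came from the means of these same 6 libraries, so agreement of libraries with it is partly built in. The smallest p that 6 libraries allow is 0.03125, which 9 pairs reached, and adjusted p was then 0.0972, so 0 of 28 pairs passed 0.05 in this design. Those 9 pairs, ordered the same way in 6 of 6 libraries, included the step from β cell–like cells to the next class for *Slc2a2*, *G6pc2*, and *Pcx*, and from endothelial-like cells to the next for *Slc2a1* and *Mpc1*. For *G6pc3* the top neighbours, α cell–like and β cell–like cells, did not differ beyond their spread (adjusted p = 0.909, exact permutation test), and with the 7 hormone genes left out of the total β cell–like cells came first. On that scale *Ppy*-dominant cells came first for *Mpc1* (97.3 CPM, against 94.5 in endothelial-like and 85.4 CPM in β cell–like cells) and for *Mpc2* (223 CPM, against 204 CPM in α cell–like cells), so the top class of these 3 genes depends on the scale.

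Fitted over all 10994 genes tested in the 30 sums with library as a block, 5 of 7 genes were called between β cell–like and α cell–like cells, where 57.0% of all genes were called (FDR under 0.05 and absolute log2 fold change above 0.1, edgeR). *Slc2a2* was higher in β cell–like cells by 4.83 (SE 0.17, adjusted p = 9.6e-26), *G6pc2* by 4.201 (SE 0.15), *Pcx* by 2.24 (SE 0.15), and *G6pc3* by 0.37 (SE 0.09) on the log2 scale. *Mpc2* had a log2 fold change of -0.79 (SE 0.07). For the α cell–like level of *Slc2a2* behind this fold, the ratio to UMIs expected with insulin was 1.01. It was 1.32 for *Mafa* and 1.36 for *Ucn3* in the same class, and the source of these UMIs was not tested. *Slc2a1* (0.25, SE 0.28) and *Mpc1* (0.12, SE 0.09) did not pass. The difference of *G6pc3* was not called with WT libraries alone (0.37, adjusted p = 0.067).

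Against δ cell–like cells, again 5 of 7 genes were called, with 56.7% of all genes called, and against *Ppy*-dominant cells 5 of 7, with 51.5%. The called genes and their directions were those of the comparison with α cell–like cells. Against δ cell–like cells, log2 fold changes were 4.48 (SE 0.16) for *Slc2a2*, 4.75 (SE 0.17) for *G6pc2*, 3.20 (SE 0.18) for *Pcx*, 0.94 (SE 0.10) for *G6pc3*, and -0.48 (SE 0.07) for *Mpc2*. Against *Ppy*-dominant cells, those of *Slc2a2* and *Mpc2* were 4.14 (SE 0.18) and -0.85 (SE 0.08). *Mpc1* was called too under some alternatives, making 6 of 7. Against δ cell–like cells these were no filter on low counts (0.28), the stricter gate (0.29), and leaving out WT library 1 (0.22), and against *Ppy*-dominant cells up to 20% mitochondrial UMIs (-0.22) and leaving out WT library 1 (-0.30). All 7 genes were called against endothelial-like cells, where 84.2% of all genes were called. *Slc2a1* had -4.29 (SE 0.12) there and *Mpc1* had -0.37 (SE 0.09). The other 5 were higher in β cell–like cells, from 0.82 (SE 0.08) for *Mpc2* to 5.16 (SE 0.17) for *Slc2a2*. The endothelial-like level of *Slc2a2* had a ratio of 0.98 to UMIs expected with insulin. Each share is to be read beside the background, since more than 50% of all genes differed between β cell–like cells and each other class.

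**Figure D3:**
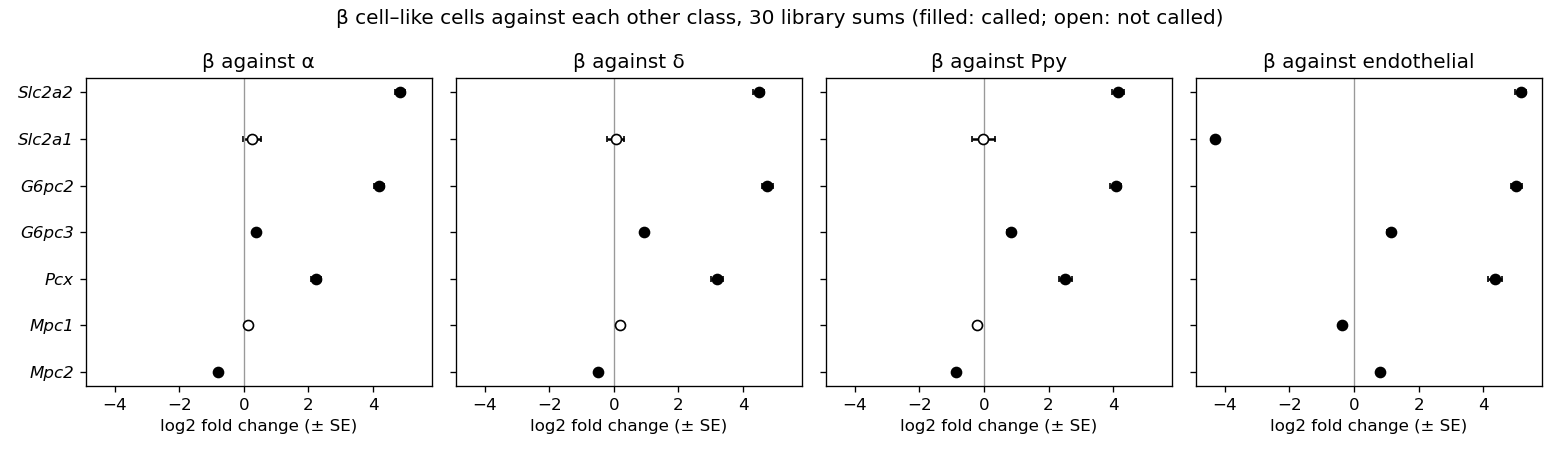
Log2 fold change (± SE) of each gene in β cell–like cells against each other class from 30 library sums, filled where called. *Slc2a2* and *G6pc2* lie above 4 in all 4 panels and *Mpc2* changes sides between endocrine and endothelial-like cells.

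Other genes of glucose handling differed between the same classes. Of 12 listed genes that phosphorylate, dephosphorylate, or carry glucose phosphates, 6 were tested and 5 were called against α cell–like cells, 3 higher and 2 lower in β cell–like cells, beside 57.0% of all genes called in that comparison. Hexokinase 1, *Hk1*, averaged 134 CPM in endothelial-like, 14.9 in α cell–like, and 0.28 CPM in β cell–like cells. Its fitted log2 differences, taken as β cell–like minus the other class, were -5.31 (SE 0.24) against α cell–like and -8.17 (SE 0.15) against endothelial-like cells. *Slc37a4*, which carries glucose 6-phosphate into the endoplasmic reticulum, was higher in β cell–like than α cell–like cells by 0.56 (SE 0.11). Of 12 other listed sugar transporters, 3 were tested and called against α cell–like cells. *Slc2a3*, the neuronal-type glucose transporter GLUT3, was lower (-5.19, SE 0.31), and *Slc2a5* (0.72, SE 0.08), a fructose transporter, and *Slc2a13* (0.98, SE 0.24), a myo-inositol transporter, were higher in β cell–like cells.

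Of 20 listed genes of pyruvate entry and exit, 17 were tested, and 6 were higher and 2 lower in β cell–like than α cell–like cells, where 57.0% of all genes were called, a share that also stands beside the counts of the next lists. *Pdk4*, an inhibitor of pyruvate dehydrogenase, had the largest difference of this list, at -7.52 (SE 0.18), with means of 0.34 CPM in β cell–like and 86.4 CPM in α cell–like cells. *Ldha*, lactate dehydrogenase A, and *Slc16a3*, a lactate carrier, were at 1.49 and 0.11 CPM in β cell–like cells and at 302 and 103 CPM in endothelial-like cells. For pyruvate cycling, 8 of 14 tested genes were higher and 3 lower against α cell–like cells, led by *Acly*, ATP citrate lyase, at 1.75 (SE 0.08). Among 11 regulators, 5 were higher and 2 lower, including *Mlxipl*, the glucose-responsive factor ChREBP, at 3.03 (SE 0.10), and *Mafa*, *Pdx1*, and *Nkx6-1*, which also served to check the class.

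Across the 30 sums, the genes whose log2 CPM followed *Slc2a2* most closely were *Sytl4*, *Prss53*, *Tmem215*, *Fam151a*, and *G6pc2* (Pearson r 0.957 to 0.976). Of the 5 nearest to *G6pc2*, 4 were among these (*Prss53*, *Fam151a*, *Tmem215*, and *Sytl4*), and *Ero1lb* was the other. *Slc2a1* was followed by *Chst2*, *Tead4*, *Cd34*, *Nkd2*, and *Hey2* (r 0.978 to 0.980). *Pcx* was nearest to *Ntrk2* (r = 0.897), *Mpc1* to *Eef1e1* (r = 0.879), *Mpc2* to *Ndufa6* (r = 0.967), and *G6pc3* to *Pabpc4* (r = 0.841). The points share libraries, depth, and cell class, so these values describe the order of classes and carry no test. The nearest genes depended in part on the scale. With hormones left out of the total, 5 of the 5 nearest genes stayed for *Pcx*, and 4 of 5 for *Slc2a2* and *G6pc2*. For *Slc2a1*, *Mpc1*, and *Mpc2* 3 of 5 stayed, and for *G6pc3* 2 of 5.

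Between genotypes, none of the 7 genes was called in any class. In β cell–like cells 6 of 7 passed the filter of a UMI in over 15% of cells of either genotype (*Slc2a1* did not), and 0 of 6 were called where 0.0105% of 9480 genes were, the single call being *Ywhaz*. The KO-to-WT log2 differences were -0.20 (SE 0.21) for *Slc2a2*, -0.22 (SE 0.10) for *G6pc2*, 0.005 (SE 0.08) for *G6pc3*, 0.11 (SE 0.11) for *Pcx*, 0.22 (SE 0.16) for *Mpc1*, and 0.27 (SE 0.09) for *Mpc2*, with adjusted p from 0.861 to 0.995 in edgeR's test. With the replicate number as a block, 24 genes (0.253%) were called and the 7 genes were not among them (lowest adjusted p = 0.215, *Mpc2*). The block gave -0.23 (SE 0.08) for *Slc2a2*, -0.21 (SE 0.09) for *G6pc2*, 0.20 (SE 0.08) for *Mpc1*, and 0.26 (SE 0.07) for *Mpc2*, each with an unadjusted edgeR p under 0.05 (0.016, 0.036, 0.034, and 0.0047). In the blocked fit 12.5% of all genes had an unadjusted p under 0.05, against 4.96% without the block.

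*Mpc2* was the only one of the 6 whose genotypes did not overlap in CPM of β cell–like cells, as 6.22% of tested genes did not. It was at 48.9, 60.5, and 61.0 CPM in WT libraries 1 to 3 and at 64.6, 76.0, and 71.2 CPM in KO libraries 1 to 3, with an unadjusted p of 0.018 and an adjusted p of 0.861 (edgeR). With the 7 hormone genes left out of the total, a scale chosen after the levels had been seen, *Mpc2* still did not overlap and *G6pc2* did not either, while 11.1% of tested genes then did not. On that scale *G6pc2* was at 897, 967, and 778 CPM in WT libraries 1 to 3 and at 757, 753, and 754 CPM in KO libraries 1 to 3. In CPM of all UMIs, *G6pc2* of KO library 3 (409.9 CPM) was above WT library 1 (407 CPM), so that its separation depends on the scale. Insulin took 42.0% to 51.2% of β cell–like UMIs, and its part in these shifts was not tested.

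Between libraries of the same number, KO was lower in 3 of 3 pairs for *Slc2a2* and *G6pc2* and higher in 3 of 3 for *Mpc1* and *Mpc2* in β cell–like cells. Of all genes tested, 4.21% were lower and 17.2% higher in 3 of 3 pairs. The genotypes of *Slc2a2* overlapped. Its log2 fold change ran from -0.46 without KO library 2 to -0.02 without KO library 1. A UMI of *Slc2a2* was found in 90.9% ± 2.19 of WT and 88.1% ± 3.82 of KO β cell–like cells (SD, n = 3, exact permutation p = 0.40, 2-sided, where 3 against 3 cannot go below 0.10). With each cell thinned to 10000 UMIs, a depth that left out no cell, the shares were 68.5% ± 10.3 and 66.7% ± 9.23 (exact permutation p = 0.80, n = 3). For *G6pc2* the shares were 97.0% ± 0.66 and 98.1% ± 0.21, a direction opposite to its CPM, and no order is read from them. Macrophage-like cells held a *Slc2a2* UMI in 0% to 21.4% of cells at median depths of 12668 to 16738 UMIs, against 22933 to 45532 UMIs in β cell–like cells.

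**Figure D4:**
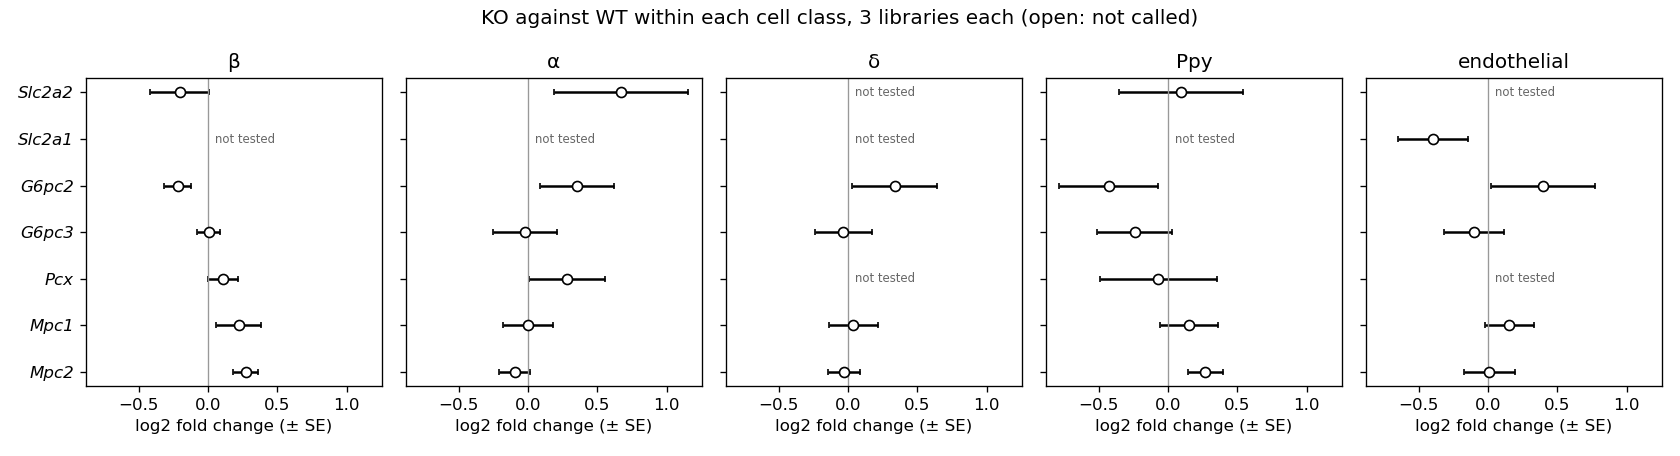
KO-to-WT log2 fold change (± SE) of each gene within each cell class, 3 libraries per genotype, with open points for genes not called. All tested points are open, and those of *Slc2a2* carry wide errors outside β cell–like cells.

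In α cell–like cells 0 of 6 tested genes were called, with 0.0% of 9053 genes called, and in δ cell–like cells 0 of 4, with 0.0% of 9427. At an unadjusted p under 0.05, 0 of these genes passed in either class, where 4.04% of all genes did in the former and 3.56% in the latter. *Slc2a2* differed by 0.67 (log2, SE 0.48) in α cell–like cells on 1 to 28 UMIs per library, and by 0.29 without WT library 1 and 1.31 without WT library 2. *Ins2*, which α cells do not make, differed by 0.88 there (SE 0.36, unadjusted p = 0.027, not called in edgeR) and *Ins1* by -0.14 (SE 0.40). Insulin took from 0.498% of α cell–like UMIs in WT library 1 to 3.34% in KO library 2. Genotypes of 0 of 6 genes did not overlap in α cell–like cells, beside 8.42% of all genes, and 0 of 4 in δ cell–like cells, beside 8.92%. With hormones left out of the total, *Mpc2* of α cell–like cells did not overlap (8.72% of all genes did not), being at 202 to 223 CPM in WT and 197 to 199.7 CPM in KO libraries.

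In *Ppy*-dominant cells 0 of 6 genes were called, with 0.0108% of 9273 genes called. *Mpc2* was at 104, 117, and 108 CPM in WT libraries 1 to 3 and at 118, 132, and 123 CPM in KO libraries 1 to 3, a log2 difference of 0.27 (SE 0.13, adjusted p = 0.962, edgeR). It did not overlap there, nor did *G6pc3*, 2 of 6 genes beside 11.6% of all genes. *G6pc3* was at 23.8, 17.4, and 19.4 CPM in WT libraries 1 to 3 and at 13.5, 15.6, and 17.3 CPM in KO libraries 1 to 3, with KO library 3 just below WT library 2. Without hormones in the total only *Mpc2* stayed apart, and 10.2% of all genes did.

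Endothelial-like cells had 0 of 5 genes called, with 0.0% of 8593 genes called, and 0 of 5 not overlapping, beside 11.1% of all genes. For *Slc2a1* KO and WT differed by -0.40 on the log2 scale (SE 0.25, adjusted p = 0.901, edgeR), by -0.95 (adjusted p = 0.065) without KO library 1, by -0.23 without KO library 2, and by -0.17 without KO library 3. *Rgs5* and *Pdgfrb* together were at 347, 317, and 379 CPM in WT libraries 1 to 3 and at 361, 654, and 421 CPM in KO libraries 1 to 3, so KO libraries 2 and 3, with the lowest *Slc2a1*, were highest in these pericyte genes. A *Slc2a1* UMI was found in 63.1% to 66.7% of endothelial-like cells of WT libraries and in 48.1% to 64.6% of those of KO libraries, lowest in KO library 2. When only the 167 of 461 endothelial-like cells without a stellate or pericyte marker UMI were kept, a choice made after seeing the data, the fold change turned to 0.35 (SE 0.33). *Slc2a1* was then at 76.1, 83.5, and 56.4 CPM in WT libraries 1 to 3 and at 142, 26.6, and 56.2 CPM in KO libraries 1 to 3, where KO library 2 rests on 12 cells and 4 UMIs. The fitted value of *Slc2a1* thus changed sign with the cells kept. In these cells KO library 1 alone was above every WT library, and KO library 2 was below every WT library. KO library 3 (56.2 CPM) was level with WT library 3 (56.4 CPM). No direction between genotypes is read from these cells.

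The difference of the KO effect between β cell–like and other cells was tested directly, and 0 of 7 genes were called against α cell–like (0.0091% of 10994 genes called), δ cell–like (0.0091%), *Ppy*-dominant (0.0091%), or endothelial-like cells (0.0182%). The smallest unadjusted p was 0.0077, for *Mpc2* against α cell–like cells (0.36, SE 0.13, adjusted p = 1.0, edgeR).

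The other genes of the pathway gave no call between genotypes either. In β cell–like cells 43 listed genes were tested over 5 lists, 0 were called, and 1, in pyruvate cycling, had an unadjusted p under 0.05, beside 0.0105% and 4.96% of all genes.

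Within β cell–like cells, 496 of 5264 had under 3000 detected genes, from 39 to 114 per library, and this split was added after the data had been seen. Insulin took 61.8% to 76.0% of their UMIs, against 40.9% to 47.3% in the other cells. In CPM of all UMIs, all 7 genes were lower in the cells with few genes in 6 of 6 libraries, but so were 92.7% of the 9480 genes tested, so nothing particular to the 7 is read from this. With the 7 hormone genes left out of the total, 50.8% of genes were lower in 6 of 6 libraries, and 2 of the 7 were (*Pcx* and *G6pc3*), so nothing particular to them is read from this either. *Pcx* was then at 23.0 ± 15.9 CPM against 80.8 ± 8.15 CPM and *G6pc3* at 35.8 ± 11.1 against 60.7 ± 4.19 CPM (SD, n = 6 libraries). *Slc2a2* was at 393 ± 76.5 against 314 ± 76.0 CPM, lower in 1 of 6 libraries, and *G6pc2* was at 777 ± 189 against 821 ± 92.3 CPM.

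**Figure D5:**
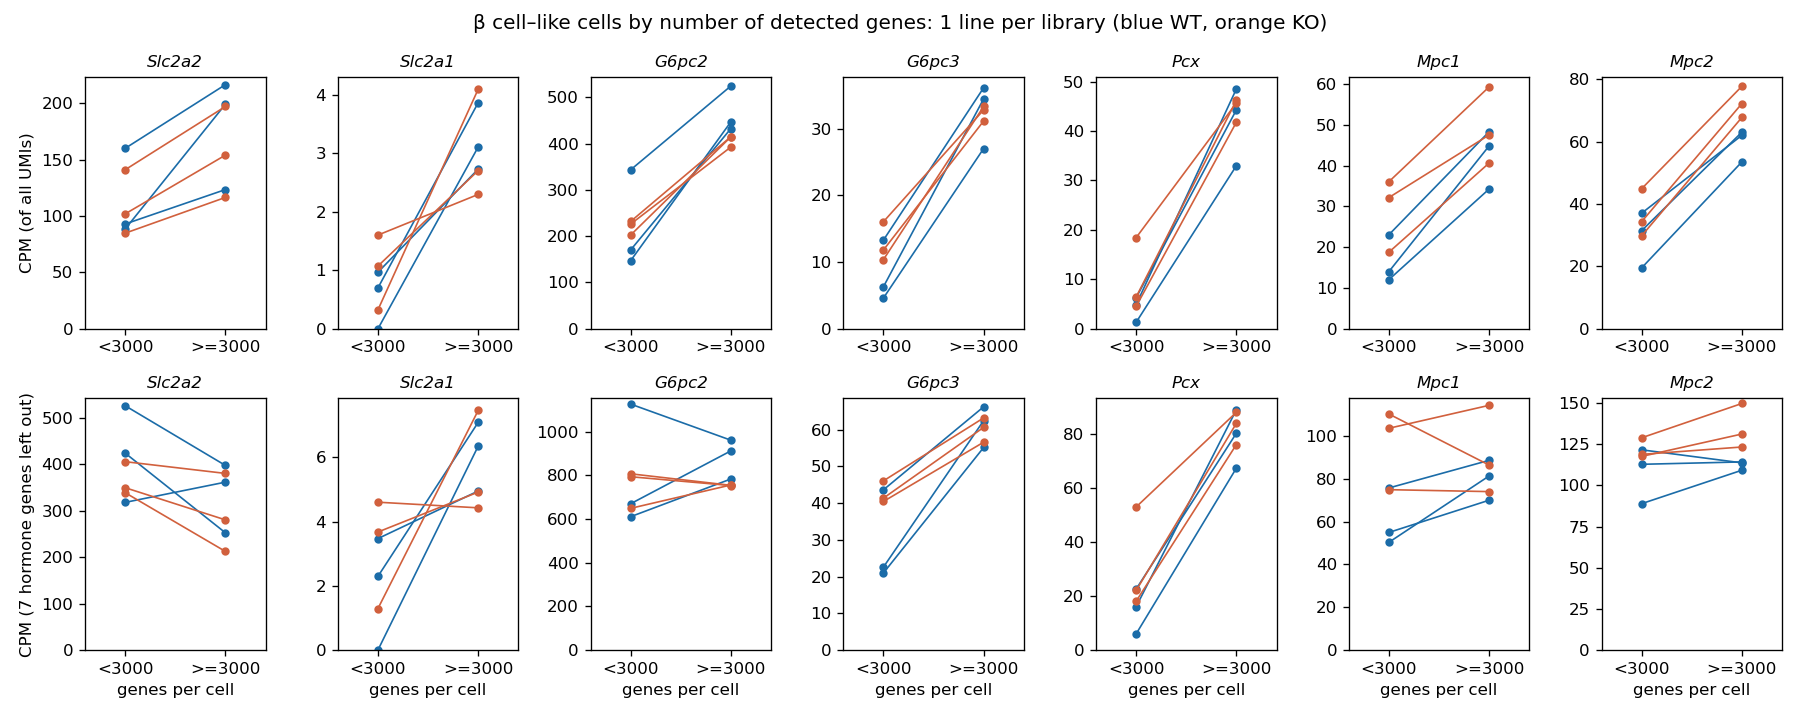
Level of each gene in β cell–like cells with fewer than 3000 and with at least 3000 detected genes, 1 line per library (blue WT, orange KO), in CPM of all UMIs (top) and with 7 hormone genes left out of the total (bottom). All lines rise in the top row, whereas in the bottom row only *Pcx* and *G6pc3* rise in all 6 libraries.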

How the data were processed

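The authors prepared 3′ libraries (kit v3.1) and processed the reads with Cell Ranger 6.0.2, per the file headers, and the submitters' processing notes name mm10 and Seurat. The deposited values are raw counts of UMIs per gene and barcode. Coordinates are of GENCODE vM21 (GRCm38), and promoters of RefSeq.

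Scrublet's own threshold called under 0.5% of barcodes in each library, so the highest-scored barcodes were called doublets at a rate that grew with the number of barcodes. β cell–like cells had at least 25% insulin UMIs and 95% of hormone UMIs, α cell–like 10% and 70%, δ cell–like 5% and 50%, and *Ppy*-dominant 15% and 70%. Endothelial-like cells had at least 5 of 7 markers, 0.5% marker UMIs, and under 10% hormone UMIs. Near these limits lay 739 β cell–like cells inside and 481 outside. UMIs were summed per library and class and tested with edgeR 4.0.16 (R 4.3.3), with DESeq2 1.42.0 as an alternative, after tests on simulated data. Between genotypes, genes tested had a UMI in above 15% of cells of either genotype. Between classes, and for differences of the KO effect, the limit was above 15% of cells in any of the 5 classes. *Slc2a1* passed that filter through endothelial-like cells alone. Named genes were the 7 genes, up to 4 called genes per list and comparison, of which some are given, and the 5 nearest by correlation (the nearest alone for some). A gene that the rule names is not reported here.

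Deviations of β cell–like sums from the mean of their genotype correlated between same-numbered WT and KO libraries (0.526, 0.494, and 0.292). The labels give replicate numbers only and do not say what such libraries share. Pairing or blocking by number is therefore an assumption. The genes and lists were chosen with earlier results of these data known. The neighbour tests and correlations were first computed with hormones left out of the total, then returned to CPM of all UMIs as planned, and the other scale is given as an alternative. P-values between genotypes rest on 3 mice per genotype. Those between classes rest on differences within libraries, WT and KO together unless stated.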

Additional observations from a re-analysis of the deposited data

How the results depend on the processing

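Of 371 alternative fits of the 7 genes between classes, 358 kept direction and call, and of 365 between genotypes 328 did, with 0 calls gained. For counts over all genes between genotypes, without a filter on low counts 2 (β cell–like), 43 (α), 12 (δ), 11 (*Ppy*-dominant), and 65 (endothelial-like) genes were called, and with the replicate block 24, 6, 3, 3, and 12, with 0 of the 7 genes among the latter. DESeq2 called 6 in β cell–like and 0 in *Ppy*-dominant cells, and the stricter gate 2 in the latter. Leaving out 1 library gave 0 to 1 in α, 0 to 6 in δ, and 0 to 3 in *Ppy*-dominant cells. Between genotypes, the log2 fold change turned for *G6pc3* in β cell–like cells (-0.012 at 20% mitochondrial UMIs, -0.0060 from 3000 genes), for *G6pc3* (0.019 without doublet calls, 0.035 at 20%, 0.047 under the stricter gate) and *Mpc1* (-0.019 without doublet calls, -0.055 under the stricter gate) in α, for *G6pc3* (0.26 under the stricter gate) and *Mpc1* (-0.011 without doublet calls, -0.0049 under the stricter gate) in δ, and for *Mpc2* (-0.0093 without doublet calls, -0.14 without pericyte marker UMIs) and *Slc2a1* (0.35 likewise) in endothelial-like cells. *Slc2a1* of β cell–like against *Ppy*-dominant cells turned too (0.078 without the filter, 0.00060 without doublet calls, 0.61 in WT libraries). Leaving out 1 library gave ranges through 0 for *G6pc3* in β (-0.052 to 0.061), α (-0.22 to 0.30), δ (-0.066 to 0.037), and endothelial-like cells (-0.23 to 0.0043), *Mpc1* in α (-0.19 to 0.15), δ (-0.16 to 0.19), *Ppy*-dominant (-0.12 to 0.38), and endothelial-like cells (-0.025 to 0.32), *Mpc2* in δ (-0.10 to 0.052) and endothelial-like cells (-0.17 to 0.20), *G6pc2* in δ (-0.055 to 0.93) and *Ppy*-dominant cells (-1.004 to 0.28), *Slc2a2* (-0.33 to 0.81) and *Pcx* (-0.33 to 0.19) in *Ppy*-dominant cells, and *Slc2a1* of β cell–like against δ (-0.11 to 0.25) and *Ppy*-dominant cells (-0.19 to 0.22). The cause was not tested. KO minus WT shares of β cells holding a UMI moved to 1.95 percentage points for *G6pc2* under the stricter gate and to 5.36 for *Mpc2* after thinning. Leaving hormones out of the total, a scale added after seeing the data, moved 22 of 35 mean levels beyond 1 SD and gave 12 pairs of neighbours at the smallest p (adjusted 0.0729).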
